A study of Arabidopsis thaliana with 8 samples.

Results

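The 50 genes described here are those whose signal dropped furthest in the within-array order of probes in the *atpd* mutant of *Arabidopsis thaliana*, taken from 692 probes named for a single gene and 3439 probes in all. Total RNA was measured on 8 arrays, 4 of the *atpd* mutant, which per the labels is without the delta subunit of ATP synthase, and 4 of wild-type plants (WT). All plants were of ecotype Wassilevskija on MS (Murashige and Skoog) medium, a mineral medium for plant culture. The labels give no tissue, age or mutant allele, and leave unsaid if each array had its own plants, so the spread between arrays may be technical. The deposited value is an intensity on an arbitrary linear scale with a ceiling of 100, and the number of arrays limits the precision.

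The members were chosen from the values themselves. Each probe's percentile rank was its place in the order of all 3439 probes on an array, from dim (near 0) to bright (near 100). Of 571 single-gene probes above 0 on all 8 arrays, 164 (28.7%) had all 4 *atpd* ranks below all 4 WT ranks, and 129 (22.6%) had all 4 above. From the 164, 14 genes named in the rule were left out, and the 50 with the largest mean rank fall were kept. With those genes left out only after the 50 were taken, 45 would remain, all of them among the 50. The differences between the genotypes given below are what chose these genes. They are described with no test, and the count whose ranks do not overlap is fixed by the rule.

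In chloroplasts, ATP synthase makes ATP from the proton gradient that photosynthetic electron transport builds up across the thylakoid membrane. The delta subunit belongs to the stalk that holds the catalytic head against the membrane part. Most chloroplast proteins are encoded in the nucleus, so the abundance of their transcripts can differ when the chloroplast is impaired. A rank shows where a transcript's signal stands among the other probes of its own array, and does not depend on how bright the array is as a whole.

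That property matters here because the arrays of the genotypes differed in brightness. The median intensity above 0 was 0.613 to 0.705 on the *atpd* arrays and 0.279 to 0.303 on the WT arrays. Between 395 and 430 probes per array were at 0, or 11.5% to 12.5% of them, and these share the lowest ranks. Replicates 1 and 2 of each genotype also deviated alike from the genotype mean, and so did replicates 3 and 4. Of 8 loci fixed as markers of green leaf tissue 2 had a single-gene probe, LHB1B2 and PSAN, and both were bright in both genotypes. None of the 3 root or 1 pollen markers had one.

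The 50 genes stood mostly in the upper part of the order in WT and in the lower part in *atpd*. Their mean rank ran from 15.5 to 63.6 in *atpd* (median 31.7) and from 47.8 to 94.5 in WT (median 73.7). In *atpd*, 47 of the 50 had a mean rank below 50 and 13 below 25. In WT, 49 of the 50 had a mean rank above 50 and 23 above 75. A choice by largest fall favours genes high in WT and low in *atpd*, so these counts partly follow from the rule. The 571 single-gene probes above 0 on all arrays had a median mean rank of 59.5 in *atpd* and 57.6 in WT. The mean rank fall ran from 29.4 to 57.4 percentile points with a median of 37.3. Over all 571 single-gene probes above 0 on all arrays the median rank difference, *atpd* minus WT, was -0.67 points. The plot of ranks by array shows the distance between the genotypes gene by gene.

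**Figure D1:**
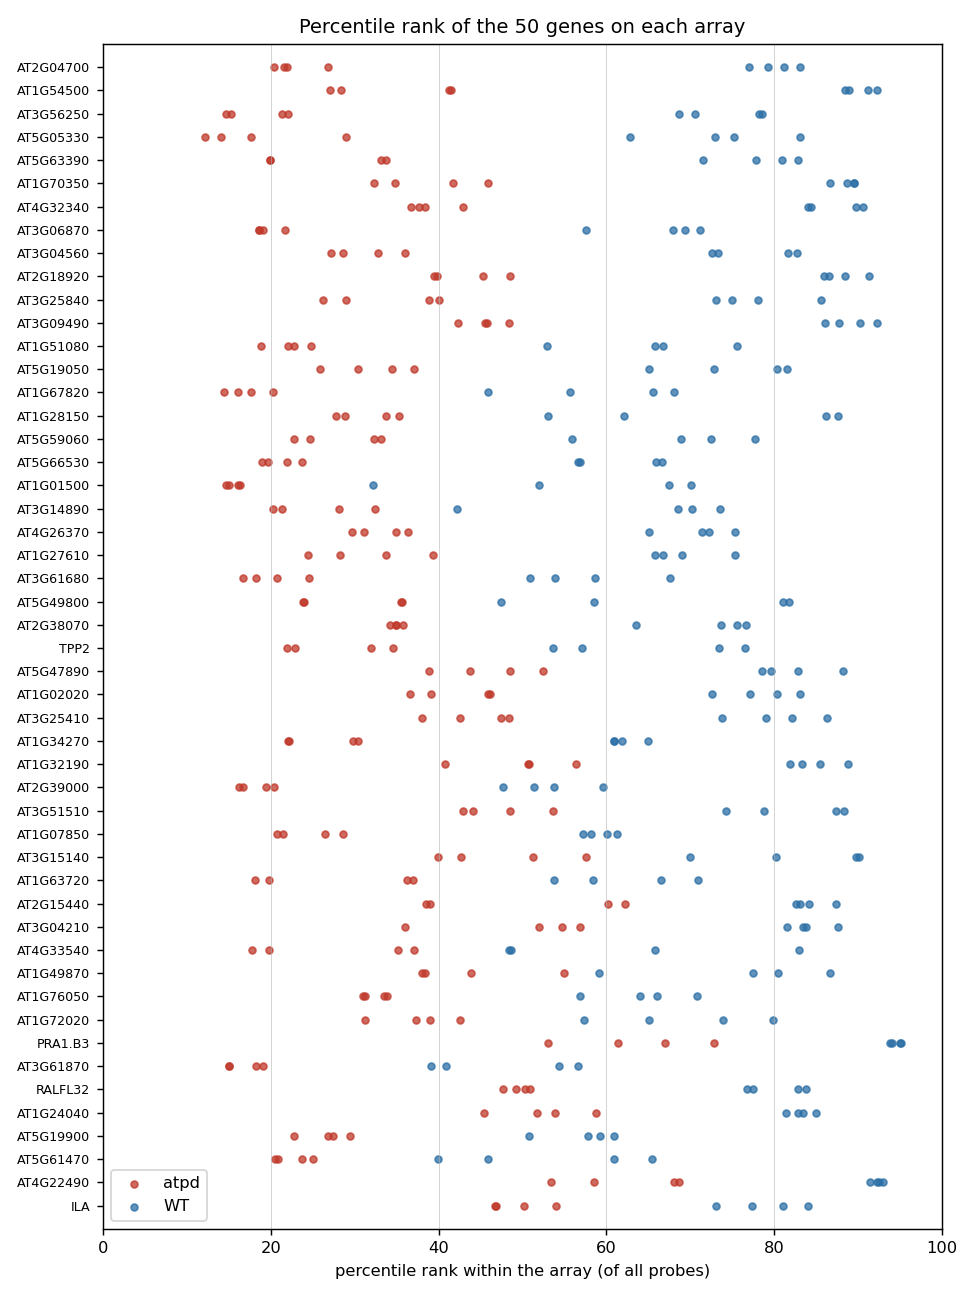
Percentile rank of each of the 50 genes on each array (x axis, in percent of all probes on the array), 1 row per gene, ordered by mean rank fall. Red points are the 4 *atpd* arrays and blue points the 4 WT arrays; AT2G04700 has the widest clear gap between them (50.2 points) and AT1G49870 the narrowest (4.19 points).

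A pair of genes of plastid redox chemistry and photosystem assembly had the largest falls. AT2G04700, the catalytic subunit of ferredoxin-thioredoxin reductase, passes electrons from ferredoxin to the thioredoxins that switch on Calvin cycle enzymes in the light. It had ranks of 26.8, 21.9, 21.6 and 20.4 on the *atpd* arrays, against 83.1, 77.0, 79.2 and 81.1 on the WT arrays. Its deposited intensities were 0.276, 0.218, 0.265 and 0.253 in *atpd* and 0.626, 0.499, 0.606 and 0.663 in WT. The lowest WT rank lay 50.2 points above the highest *atpd* rank, the widest gap among the 50 genes. On the log2 scale after quantile normalisation, which gives all arrays the same distribution, the difference was -2.39 (SE 0.15, n = 4 in each), and it was -1.24 on the deposited values. The SEs given here treat the arrays as independent.

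AT1G54500 encodes a rubredoxin, a small iron protein of the thylakoid membrane that is needed for the assembly of photosystem II. Its ranks were 41.5, 41.2, 27.0 and 28.4 in *atpd* and 92.3, 91.2, 88.5 and 89.0 in WT, with a mean fall of 55.7 points. Its intensity was 0.437, 0.441, 0.338 and 0.358 in *atpd*, against 1.07, 1.01, 0.934 and 0.951 in WT. Replicates 3 and 4 of *atpd* were lower than replicates 1 and 2 by both measures, and all 4 lay far below the lowest WT array. The mean intensity ratio, *atpd* over WT, was 0.397 for AT1G54500 and 0.423 for AT2G04700.

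Genes of nucleic acid handling made up 7 of the 50, with rank falls from 30.5 to 55.3 points. The role groups used here were made after the members were known. Their shares among the 571 probes were not counted, so group sizes describe only this list. AT5G05330, an HMG-box protein of the kind that binds DNA, had ranks of 29.0, 12.2, 17.6 and 14.1 in *atpd* and 83.1, 73.0, 75.2 and 62.8 in WT. Its intensity was 0.303, 0.00214, 0.203 and 0.129 in *atpd*, against 0.626, 0.439, 0.521 and 0.356 in WT. The value on *atpd* replicate 2 was just above 0, and it sets the size of the log2 difference: -4.22 (SE 1.28) over all arrays after quantile normalisation and -2.81 without that array. On the rank scale the same array was also the lowest of the 4.

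AT3G25840, a PRP4-type protein kinase that acts on the pre-mRNA splicing machinery, had ranks of 26.2, 29.0, 40.1 and 38.9 in *atpd* and 73.0, 74.96, 85.5 and 78.0 in WT. Both genotypes were higher on replicates 3 and 4. Its intensities therefore overlapped between the genotypes, at 0.269, 0.300, 0.496 and 0.495 in *atpd* and 0.440, 0.461, 0.816 and 0.591 in WT, while its ranks were separated by 33.0 points. The others in this group were AT4G26370, with the NusB domain of transcription antitermination factors, AT3G14890, a DNA 3′-phosphoesterase of DNA repair, and AT3G15140, an exonuclease of the ERI1 type. AT1G76050, of the pseudouridine synthase family that modifies RNA, and AT5G61470, a zinc-finger protein, completed it. In deposited intensity AT1G76050 averaged 0.372 in *atpd* and 0.370 in WT, so its rank fall of 32.1 points came with no lower mean.

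Signalling, trafficking and defence genes numbered 5, with rank falls from 29.4 to 41.7 points. AT1G67820, a protein phosphatase of the 2C family, had ranks of 17.7, 20.3, 16.1 and 14.5 in *atpd* and 65.6, 68.0, 55.7 and 45.9 in WT. The WT arrays were more spread than the *atpd* arrays, with an SD of 10.1 points in WT and 2.48 in *atpd*. PRA1.B3, a prenylated Rab acceptor of vesicle trafficking, was the brightest of the 50 genes in WT. Its intensity was 0.765, 0.874, 0.764 and 0.669 in *atpd* and 1.40, 1.37, 2.01 and 1.91 in WT. Its ranks were 67.0, 72.9, 61.4 and 53.1 in *atpd*, against 94.1, 93.8, 95.1 and 95.0 in WT, so it stayed above the middle of the order in *atpd*.

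RALFL32 belongs to the RALF peptides, secreted signals perceived at the cell surface. It had ranks of 50.9, 50.3, 49.3 and 47.7 in *atpd* and 83.8, 82.8, 77.5 and 76.8 in WT. Its intensities ran together, at 0.547, 0.542, 0.604 and 0.601 in *atpd*, against 0.654, 0.617, 0.571 and 0.561 in WT. ILA (ILITHYIA), a large HEAT-repeat protein related to yeast GCN1 and known from plant immunity, had the smallest fall among the 50. Its ranks were 50.2, 54.0, 46.8 and 46.9 in *atpd* and 81.0, 84.1, 73.0 and 77.3 in WT, while its mean intensity was 0.573 ± 0.0233 in *atpd* and 0.574 ± 0.0667 in WT (SD, n = 4 in each). AT3G04210, a TIR-NBS protein of the plant immune receptor class, had a rank fall of 34.2 points.

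At the edge of the set the values ran on without a step. ILA had a rank fall of 29.4054 points and AT3G59300, the first gene outside, one of 29.3908. The ranks of AT3G59300 were 55.8, 57.1, 43.7 and 42.0 in *atpd* and 78.4, 83.5, 75.6 and 78.7 in WT. A further 100 genes with ranks that do not overlap and that the rule does not name had falls of 0.41 to 29.4 points. The limit of 50 is thus a choice of number.

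Proteolysis and protein acetylation were represented by 3 genes. TPP2, tripeptidyl peptidase II, a very large peptidase that trims tripeptides from the ends of longer peptides, had ranks of 31.9, 34.6, 21.9 and 22.9 in *atpd* and 76.5, 73.4, 53.6 and 57.1 in WT. Both genotypes were lower on replicates 3 and 4, by ranks and by intensity (0.332, 0.364, 0.269 and 0.290 in *atpd*, 0.486, 0.443, 0.279 and 0.304 in WT). AT2G39000 and AT1G24040, both of the GNAT acetyltransferase family, had rank falls of 34.9 and 30.7 points. A probe numbered next to that of AT2G39000 was the brightest of all 69 probes numbered next to a member, at a mean of 4.07 in *atpd* and 11.0 in WT. That bright probe had a rank difference, *atpd* minus WT, of -1.28 points, and the probe on the other side of AT2G39000 one of -34.3.

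Glycosyl transfer and cell wall genes also numbered 3. AT5G63390, of the O-fucosyltransferase family, had ranks of 19.9, 19.9, 33.8 and 33.1 in *atpd* and 77.9, 71.5, 82.8 and 81.0 in WT. Its intensities split by replicate pair in *atpd*, at 0.196 and 0.191 on replicates 1 and 2 and 0.422 and 0.419 on replicates 3 and 4, and were 0.512, 0.422, 0.710 and 0.657 in WT. The lowest WT value and the highest *atpd* value thus met at 0.422 in intensity, but lay 37.7 points apart in rank. AT1G34270, of the exostosin family of glycosyltransferases, and AT2G15440, of the DUF579 family linked to xylan synthesis, had falls of 36.0 and 34.4 points.

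Metabolism and transport accounted for 7 genes with rank falls from 30.1 to 40.5 points. AT4G22490, of the lipid-transfer protein family, had an intensity of 0.794, 0.780, 0.663 and 0.738 in *atpd*, against 1.17, 1.13, 1.26 and 1.16 in WT. Its ranks were 68.6, 68.0, 53.4 and 58.6 in *atpd* and 93.0, 92.5, 92.2 and 91.4 in WT. It and PRA1.B3 were the 2 members with a mean WT intensity above 1. AT5G66530, of the aldose 1-epimerase family, had a fall of 40.5 points, AT3G61680, a plastid lipase, 37.7, and AT1G02020, of the nitroreductase family, 36.4. The fall was 36.4 points for AT5G47890, a subunit of mitochondrial complex I, 36.2 for AT3G25410, a membrane carrier of the bile acid:sodium symporter family, and 34.0 for AT4G33540, of the metallo-beta-lactamase family.

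For 23 of the 50 genes no role is given here, and these include several of the largest falls. AT3G56250 had ranks of 22.0, 21.4, 14.7 and 15.3 in *atpd* and 78.5, 78.2, 68.7 and 70.5 in WT, and intensities of 0.225, 0.210, 0.146 and 0.161 in *atpd* against 0.524, 0.518, 0.428 and 0.453 in WT. AT1G70350 had ranks of 45.9, 41.7, 32.3 and 34.9 in *atpd* and 88.7, 89.6, 89.5 and 86.7 in WT. AT4G32340 had ranks of 37.7, 42.9, 38.4 and 36.7 in *atpd* and 89.8, 90.6, 84.1 and 84.4 in WT. The groups of each of the 3 genes were far apart by both measures, with mean intensity ratios, *atpd* over WT, of 0.386 for AT3G56250, 0.497 for AT1G70350 and 0.541 for AT4G32340.

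AT3G06870 had ranks of 21.8, 18.6, 18.6 and 19.0 in *atpd* and 69.4, 57.5, 71.2 and 67.9 in WT. AT3G04560 had ranks of 36.0, 32.8, 27.2 and 28.6 in *atpd* and 81.7, 82.8, 72.6 and 73.3 in WT. AT2G18920 had ranks of 45.2, 48.5, 39.4 and 39.8 in *atpd* and 88.5, 91.4, 85.9 and 86.6 in WT. The *atpd* arrays lay close together in intensity for AT2G18920, at 0.499 ± 0.0175 in *atpd* and 0.880 ± 0.0950 in WT, and for AT3G04560, at 0.356 ± 0.0195 in *atpd* and 0.550 ± 0.0659 in WT (SD, n = 4 in each).

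AT3G09490 had ranks of 48.4, 42.3, 45.7 and 45.5 in *atpd* and 92.2, 90.2, 86.0 and 87.8 in WT. AT1G51080 had ranks of 22.8, 24.8, 18.8 and 22.1 in *atpd* and 66.7, 75.6, 65.7 and 53.0 in WT. AT5G19050 had ranks of 30.4, 25.9, 37.1 and 34.4 in *atpd* and 81.5, 80.4, 72.9 and 65.1 in WT. For AT1G51080 and AT5G19050 the deposited intensities of the genotypes overlapped, with 0.278 as the highest *atpd* value and 0.272 as the lowest WT value for AT1G51080. For AT5G19050 the highest *atpd* value was 0.460 and the lowest WT value 0.384. The other genes with no role given were AT1G28150, AT5G59060, AT1G01500, AT1G27610, AT5G49800, AT2G38070, AT1G32190, AT3G51510, AT1G07850, AT1G63720, AT1G49870, AT1G72020, AT3G61870 and AT5G19900, with rank falls between 30.6 and 40.8 points. The plot of intensities sets the deposited values of the 20 genes given array by array side by side.

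**Figure D2:**
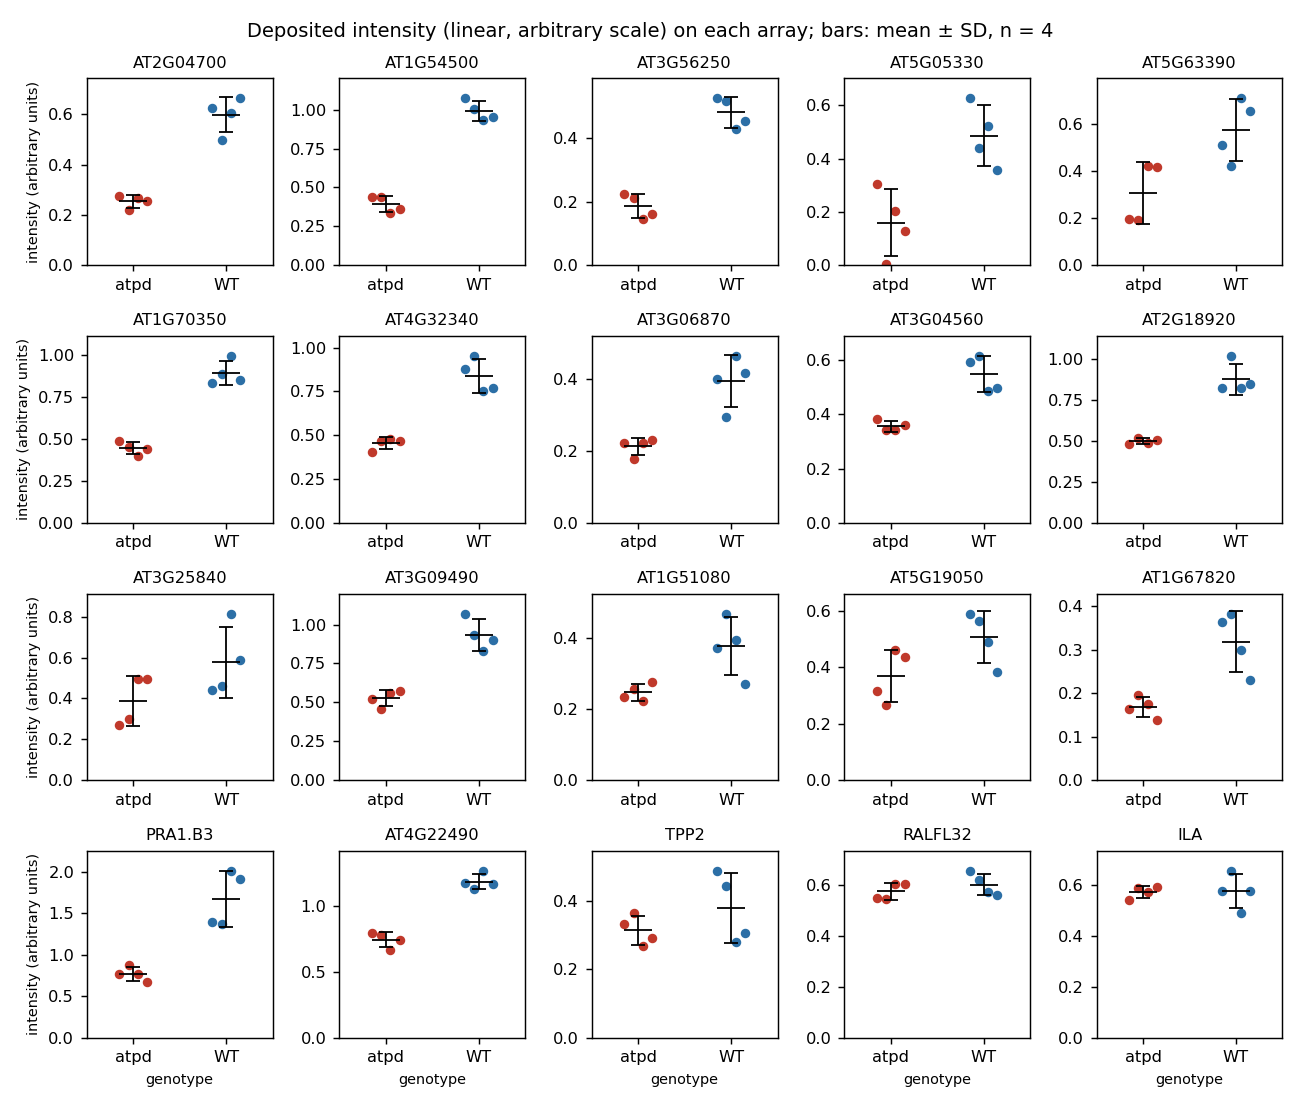
Deposited intensity (y axis, linear, arbitrary units, each panel from 0) of 20 of the 50 genes on the 4 *atpd* arrays (red, left) and the 4 WT arrays (blue, right), replicates 1 to 4 from left to right within a genotype; black bars are mean ± SD, n = 4. The genotypes are well apart for AT2G04700, AT1G54500 and AT3G56250 and overlap for TPP2, RALFL32 and ILA.

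A fall in rank was not in every case a fall in deposited intensity. In 20 of the 50 genes all 4 *atpd* intensities lay below all 4 WT intensities, in 30 the genotypes overlapped, and in none did all *atpd* values lie above. Over the 571 single-gene probes above 0 on all arrays, 7.18% were lower in *atpd* without overlap and 63.7% were higher. The mean intensity ratio, *atpd* over WT, ran from 0.328 to 1.02 over the 50 genes with a median of 0.769, and had a median of 1.99 over the 571 probes. It was at most 0.5 in 7 of the 50, within 10% of 1 in 6, and above 1 in 3, namely AT1G72020, AT5G19900 and AT1G76050. The 20 genes without overlap in intensity had rank falls of 30.1 to 57.4 points (median 44.2), and the 30 with overlap had falls of 29.4 to 44.4 (median 35.7).

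**Figure D3:**
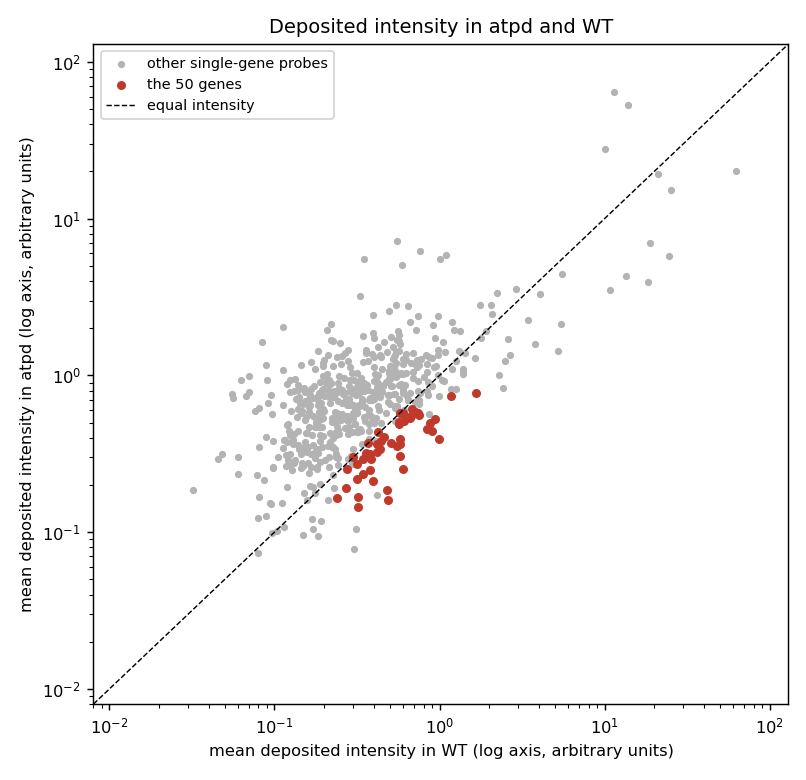
Mean deposited intensity in *atpd* (y axis) against that in WT (x axis), both on log axes in arbitrary units, for the 571 single-gene probes above 0 on all arrays, with the 50 genes in red, the others in grey and equal intensity as a dashed line. Most grey points lie above the line, while 47 of the 50 genes lie below it and 3 slightly above.

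On the log2 scale, after quantile normalisation, the differences of the 50 genes, *atpd* minus WT, ran from -4.22 to -1.04 with a median of -1.52, beside a median of -0.090 over all 2921 tested probes. With the values as deposited they ran from -2.89 to 0.041 with a median of -0.37, beside 0.996 over all tested probes. A common median gave a median of -1.54 beside -0.17, and cyclic loess one of -1.47 beside 0.030. The choice of the members from these arrays fixes that their median lies below that of all tested probes, so only the sizes are given.

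**Figure D4:**
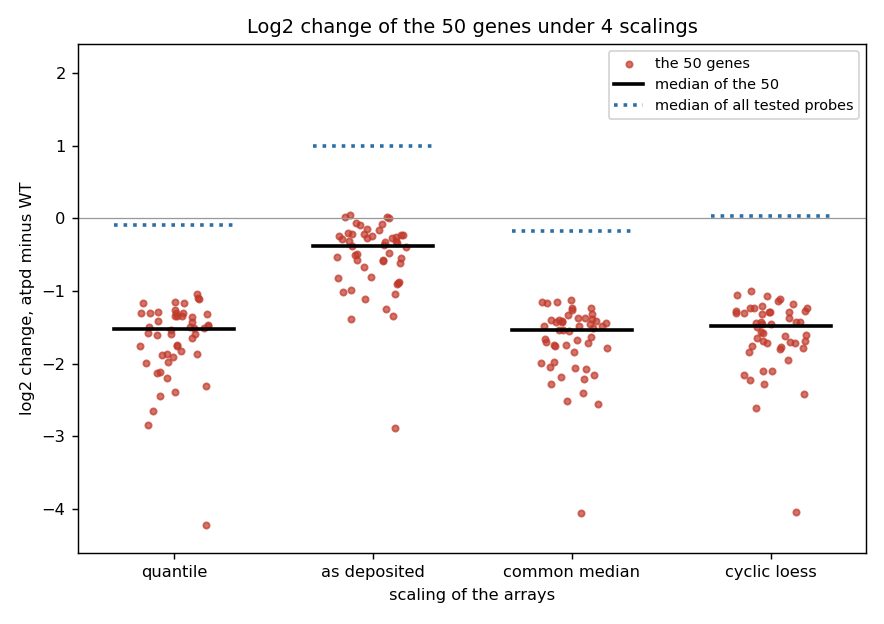
Log2 difference, *atpd* minus WT (y axis), of the 50 genes under 4 scalings of the arrays (x axis), with 1 point per gene, the median of the 50 as a black line and the median of all 2921 tested probes as a dotted line. With the values as deposited the 50 genes run from -2.89 to 0.041 with a median of -0.37, beside 0.996 for all probes, while in the other scalings their medians are -1.54 to -1.47 and those of all probes -0.17 to 0.030.

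In limma's test with Benjamini-Hochberg adjustment at 0.05 over all 2921 tested probes, 625 were higher (21.4%) and 888 lower (30.4%) in *atpd*. With the values as deposited 1829 were higher (62.6%) and 260 lower (8.9%). After quantile normalisation with array pairs as a random block, 336 were higher and 588 lower. Since the rule used the same contrast, no calls of the 50 genes are given.

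Because the rule set all 4 *atpd* ranks below all 4 WT ranks, a fall on each set of 2 replicates was given by it, and only the sizes are described. The median over the 50 genes was 39.4 points on replicates 1 and 2 and 37.5 on replicates 3 and 4. The larger fall was on replicates 1 and 2 for 28 genes and on replicates 3 and 4 for 22. In 12 genes the sets differed by over 15 points. AT3G15140 had a fall of 20.7 points on replicates 1 and 2 and 48.6 on replicates 3 and 4, AT1G01500 one of 25.9 and 53.9, and AT1G28150 one of 29.2 and 52.4. AT5G59060 went the other way, with 51.4 on replicates 1 and 2 and 29.6 on replicates 3 and 4, as did AT1G72020 with 41.7 and 21.3.

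**Figure D5:**
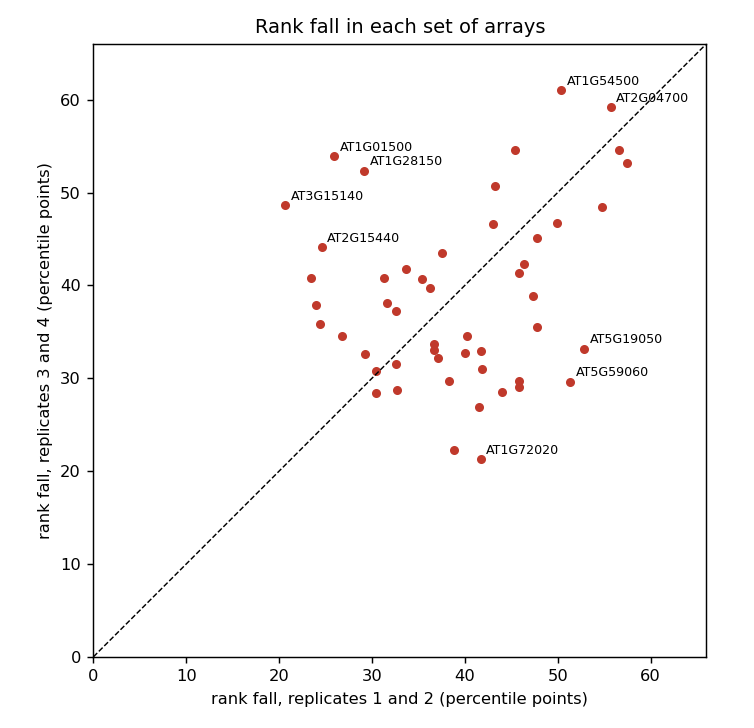
Rank fall (percentile points) of each of the 50 genes on replicates 3 and 4 (y axis) against that on replicates 1 and 2 (x axis), with 1 point per gene and equal falls as a dashed line. The rule puts all points above 0 on both axes, and AT3G15140, AT1G01500 and AT1G28150 lie furthest above the line.

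Within a genotype the ranks of the 50 genes varied by a median SD of 4.77 points in *atpd* and 5.31 in WT (n = 4 in each). Over the 571 probes the median SD was 3.94 points in *atpd* and 7.23 in WT. Genes with widely spread ranks can pass the rule only where their fall is wide too. AT1G49870 came closest to overlap, with 54.9, 43.9, 38.0 and 38.4 in *atpd* and 86.7, 59.1, 80.5 and 77.4 in WT. The most variable in WT were AT1G01500, at 52.0, 32.2, 67.5 and 70.0, and AT1G28150, at 62.1, 53.0, 86.2 and 87.6.

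No photosynthesis gene of the fixed lists was among the 50, and most of the listed loci had no single-gene probe. Of 79 loci listed for the antenna, the photosystems, electron transport with ATP synthase and the Calvin cycle, 8 had a single-gene probe and 7 were tested, of which 1 rose (21.4% of all tested probes did), 5 fell (30.4% did) and 1 did not pass. By list, the antenna (LHB1B2), photosystem I (PSAN) and the Calvin cycle (PRK) each had 1 gene that fell, photosystem II had PSBW higher, PSBY and LPA19 lower and PSB27 not past the threshold, and the electron transport list had no probe. With the values as deposited, 3 of the 7 (PSB27, PSBW and LPA19) were higher and 4 lower, so LPA19 changed direction. On a common median the 5 that fell after quantile normalisation were lower (32.9% of all tested probes), and 2 (PSB27 and PSBW) did not pass. After cyclic loess 3 (PSAN, PRK and LPA19) were lower (24.7%) and 1 (PSBW) higher (22.6%), while LHB1B2, PSBY and PSB27 did not pass. None of the 8 is a member, and PSAN, PSBY, LPA19 and PRK are among the 14 genes left out by name. LHB1B2, which binds chlorophyll in the antenna, had a mean intensity of 20.2 ± 2.79 in *atpd* and 62.3 ± 3.70 in WT (SD, n = 4 in each), yet its mean rank was 99.4 in *atpd* and 99.8 in WT. At the bright end few probes lie between such values. That remark does not cover LPA19 and PSB27, which had WT means of 0.427 and 0.495. The 50 genes had WT means of 0.240 to 1.67 with a median of 0.496, and a median mean rank of 73.7 in WT.

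The members share little in position. By the chromosome in the locus tag, 17 lay on chromosome 1, 5 on 2, 12 on 3, 6 on 4 and 10 on 5, where 570 of the 571 probes were spread as 143, 103, 105, 109 and 110, and 1 had no such tag in the annotation. AT5G05330 and PRA1.B3 were the nearest members in the reference gene order, with 5 genes between them. No member had another single-gene probe, so none of the falls could be set beside a further probe of that kind. Probes listed for several genes were not part of this search. No members had adjoining probe numbers. The 69 probes numbered next to a member had a median rank difference of -2.69 points, and all 3439 probes one of -1.13. Those 69 ran from -45.9 points, for a probe beside that of TPP2, to 41.1, for one beside that of AT1G02020. All 3439 probes ran from -68.6 to 83.9 points. Whether neighbouring probes shared a fall was not tested. How probe numbers map to places on the array is not given in the labels.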

How the data were processed

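The authors deposited a linear intensity for each probe on each array. Its background correction and scaling are not given per the labels or the file headers. Genotype and replicate number come from the sample titles.

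Probes were named through the platform annotation, in which 692 have 1 gene, 870 several and 1877 none listed. Of the 692, 690 matched the TAIR10.1 gene table, used for names and gene order only. That table holds no descriptions, so roles of genes known by locus tag are general knowledge not checked here, and their grouping was made after the members were known. The members and lists were chosen with earlier results of these data known.

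Percentile ranks were taken over all 3439 probes with ties averaged (pandas 2.3.3). For log2 values, zeros were missing, at least 3 values were required in each genotype, arrays were quantile-normalised, and limma 3.58.1 (lmFit, eBayes, R 4.3.3) was fitted two-sided with Benjamini-Hochberg adjustment at 0.05. The fit was tested on simulated data. Genes given array by array were the 15 largest falls, the 5 brightest in WT, list members, genes with a symbol other than the locus tag, and those at the limit of 50.

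Deviations from the genotype means of same-numbered *atpd* and WT arrays correlated at 0.374, 0.283, 0.291 and 0.285 over 2848 probes, all over the limit of 0.1. Differently numbered *atpd* and WT arrays within replicates 1 and 2 (0.184 and 0.239) or 3 and 4 (0.257 and 0.289) came close to these, so a pairing by number is not told apart from one by replicate set. The main fit had no term for either pairing. Replicate number and array pairs entered only among the alternatives. Replicates 1 and 2 correlated at 0.613 in *atpd* and 0.227 in WT, and replicates 3 and 4 at 0.777 in *atpd* and 0.206 in WT. Alternatives were other scalings, filters, a pseudocount of 0.1, the replicate number as a block, array pairs as a random block, other sets of ranked probes and each array left out. Planned promoter and protein searches were not run, since no sequences were at hand.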

Additional observations from a re-analysis of the deposited data

Results flagged for a closer look

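In the 21 genes given array by array, 84 sets of 4 values (a gene's ranks or intensities in 1 genotype) were examined for a single distant value. There were 4, where 1 in 20 of independent sets gives 4.2. A gene's ranks and intensities come from the same arrays, and the arrays go in pairs, so 4.2 is only a rough guide. AT4G32340 had an intensity of 0.402 on *atpd* replicate 1, where the remaining *atpd* values lay between 0.465 and 0.476. AT3G06870 had a rank of 21.8 on *atpd* replicate 1, with 18.6 to 19.0 elsewhere in *atpd*, and an intensity of 0.176 on *atpd* replicate 2, with 0.221 to 0.229 elsewhere. AT2G18920 had an intensity of 1.02 on WT replicate 2, and between 0.823 and 0.851 in the rest of WT.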

How the results depend on the processing

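The median rank difference of the 50 genes, -37.3 points, was -42.5 when only probes above 0 on the array were ranked and -41.6 when only probes above 0 on all arrays were; both leave out the tied probes at 0, which widens the scale. It was -39.4 on replicates 1 and 2 alone, and -37.8 to -35.9 with each array left out. Ordering the same genes by log2 difference after quantile normalisation kept 31 of the 50 among the 50 largest, and leaving out each array kept 45 to 49. Replicates 1 and 2 alone kept 41 and replicates 3 and 4 alone 38, both settings chosen after the data were seen. All 50 kept their ranks apart with each array left out, as the rule's construction requires. Over all probes, 1513 calls became 924 (336 higher and 588 lower) when array pairs entered as a random block and 1301 to 1499 with each array left out. With the replicate block the count was 1656. With the values as deposited ILA was at 0.0041 and AT3G59300 at 0.013 on the log2 scale, where all probes shifted by 0.996. The other values of the 21 genes under alternatives kept their direction, 308 within 1 SD and 43 beyond. Several alternatives, such as the blocks and filters, leave the log2 difference unchanged by construction. With the values as deposited, all of the 21 genes but AT5G05330 moved beyond 1 SD or changed direction. RALFL32, for example, went from -1.10 to -0.066.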
